A study of Mus musculus with 4 samples.

Results

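Excitation-contraction coupling links the electrical signal of a muscle fibre to the release of calcium from its internal store, the sarcoplasmic reticulum, and to its return there. The 10 genes Atp2a1, Atp2a2, Ryr1, Casq1, Pvalb, Sln, Mrln, Jph1, Cacna1s and Stac3 were followed through muscle injury, and all 10 were found by symbol among the 32285 features of each table. The spatial transcriptomes came from fresh frozen tibial muscle of C57BL/6 mice carrying the Nse-Bmp4 transgene, labelled 6-8 week old, with 1 section of uninjured muscle (day 0) and 1 each at 1, 3 and 7 days after cardiotoxin injury (days post injury, dpi). The transgene places Bmp4 cDNA behind the promoter of neuron specific enolase, and all groups carry it, the uninjured one included. The labels state that 3 muscles were mixed per group, and how these map onto a section is not stated, so each group counts as 1 sample and no p-value is given.

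In a resting fibre, the voltage sensor Cacna1s sits in the membrane tubules opposite the release channel Ryr1, held close by the junctional protein Jph1 and aided by the adaptor Stac3. Calcium stored on calsequestrin (Casq1 in fast fibres, with Casq2 the cardiac and slow fibre form) leaves through Ryr1, is buffered in the cytosol of fast fibres by parvalbumin (Pvalb), and is pumped back by the SERCA pumps. Atp2a1 encodes the fast fibre pump, Atp2a2 the pump of slow fibres, heart and, as a splice form, of most other cells. The small membrane proteins sarcolipin (Sln) and myoregulin (Mrln) inhibit these pumps. In mice, sarcolipin is known from the atria, slow muscle and developing or diseased muscle, and little of it is found in adult fast muscle.

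Sections held between 2107 spots (day 0) and 3032 spots (day 7), with totals from 16777832 UMIs at 1 dpi to 56113066 at 3 dpi, where a UMI (unique molecular identifier) stands for 1 captured RNA molecule. The median depth of a spot was 21029 UMIs at 0 dpi, 6322 at 1 dpi, 16087 at 3 dpi and 12119.5 at 7 dpi. Muscle identity was checked with a list of 13 sarcomere and muscle enzyme genes, mostly of fast fibres, which holds neither Acta1 nor any of the 10 genes. These took a median of 18.9%, 9.47%, 7.79% and 11.9% of a spot's UMIs before injury and at 1, 3 and 7 dpi. Levels are therefore given both as counts scaled to a common total of 1000000 UMIs per section (CPM) and per 1000 UMIs of Acta1, the actin of skeletal muscle fibres. Acta1 itself had 58810 CPM at 0 dpi, 29762 at 1 dpi, 22224 at 3 dpi and 31408 at 7 dpi. Per 1000 UMIs of the sarcomere list it had 318, 274, 361 and 294 UMIs at these days. Small differences per Acta1 UMI therefore depend on this choice of reference. A lower CPM can come from fewer fibres in a section, from less of the RNA in each or from more RNA of other cells, and these cannot be told apart. Intervals are at 95% and cover counting error only.

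Promoter sequence was available for 6 of the 10 genes, and is shown for the 3 whose RNA followed the fast myosin gene Myh4 most closely across spots. Each runs from 250 bases before the gene's start to 50 after it, read 5′ to 3′ on the gene's own strand (RefSeq, GRCm38.p6, the assembly also named mm10). Capitals mark matches to CANNTG, the E-box bound by myogenic factors such as MyoD, to the MEF2 motif, to the CArG box and to TATAAA.
Atp2a1, chr7:126463024-126463323, minus strand: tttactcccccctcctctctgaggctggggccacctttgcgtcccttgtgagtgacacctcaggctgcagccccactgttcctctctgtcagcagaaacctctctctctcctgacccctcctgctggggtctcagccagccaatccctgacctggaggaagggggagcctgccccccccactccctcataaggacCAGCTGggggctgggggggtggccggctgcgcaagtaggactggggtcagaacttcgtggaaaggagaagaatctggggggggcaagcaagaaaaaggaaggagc
Casq1, chr1:172219846-172220145, minus strand: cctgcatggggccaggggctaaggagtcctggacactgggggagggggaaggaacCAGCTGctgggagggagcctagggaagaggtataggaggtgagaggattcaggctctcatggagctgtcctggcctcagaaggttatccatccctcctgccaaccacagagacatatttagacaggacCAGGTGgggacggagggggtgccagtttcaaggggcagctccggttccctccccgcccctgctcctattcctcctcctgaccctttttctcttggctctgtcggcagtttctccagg
Pvalb, chr15:78206351-78206650, minus strand: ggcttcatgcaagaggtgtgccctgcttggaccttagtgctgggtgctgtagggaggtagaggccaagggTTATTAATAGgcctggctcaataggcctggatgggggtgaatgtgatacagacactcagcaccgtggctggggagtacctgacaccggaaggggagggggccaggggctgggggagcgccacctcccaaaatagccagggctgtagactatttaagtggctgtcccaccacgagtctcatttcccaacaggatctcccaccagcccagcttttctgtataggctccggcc
The E-box form CAGCTG began 55 bases before the start in Atp2a1 and 195 before it in Casq1, and Cacna1s held one too, which made 3 of 6 genes against 16.3% of all 32851 promoter windows. The wider pattern CANNTG, which includes CAGCTG, was in 5 of the 6, in Pvalb only at a second start, and in 72.3% of all windows. A gene with more than 1 start has more than 1 window, so counts of genes and shares of windows are not like units. The stretch in capitals in Pvalb is a MEF2 match 180 bases before this start, the 1 such match among the 6 genes, against 3.19% of all windows. A second start of Pvalb held 2 E-boxes and no MEF2 match. No window of the 6 genes held TATAAA or the CArG box, which were in 13.6% and 1.63% of all windows. Both strands were searched, and these matches describe letters and not binding.

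On the CPM scale, most of the genes were lower after injury, lowest at 3 dpi for all but Stac3 among those that were lower at every injured day, and closer to the day 0 level at 7 dpi. At 1 dpi, 6 of 10 were at least 2-fold lower than before injury and 1 was at least 2-fold higher, where 9.93% and 23.7% of the 17250 features with at least 10 UMIs passed the same folds. At 3 dpi, 7 of 10 were lower and 1 higher (8.53% and 31.9% of features), and at 7 dpi, 1 was lower and 2 were higher (2.13% and 32.0%). These counts depend on the scaling and on the spots: with TMM factors or size factors, which rest on the bulk of genes and not on the total, 5 were lower and 1 higher at 7 dpi, and in spots with at least 10% sarcomere RNA, 3, 1 and 0 were lower at 1, 3 and 7 dpi. The factors move every feature by the same amount, so the share of all features called moves as well. The feature shares above are for CPM over all spots, and those under these settings are not given. The median log2 ratio of the 10 genes was -1.05, -1.30 and -0.40 at 1, 3 and 7 dpi, against 0.27, 0.55 and 0.64 over all features tested. Per Acta1 UMI, none of the 10 was 2-fold lower at any day (2.3%, 1.12% and 0.4% of features), and 2 were 2-fold higher, Atp2a2 and Sln, at each day. The background there was 61.3%, 82.5% and 78.7%, since Acta1 was lower in every injured section. The medians per Acta1 UMI were -0.07, 0.10 and 0.51, against 1.25, 1.95 and 1.54 over all features. So as a group the genes stayed near Acta1 at 1 and 3 dpi, while single members departed from it in both directions.

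**Figure D1:**
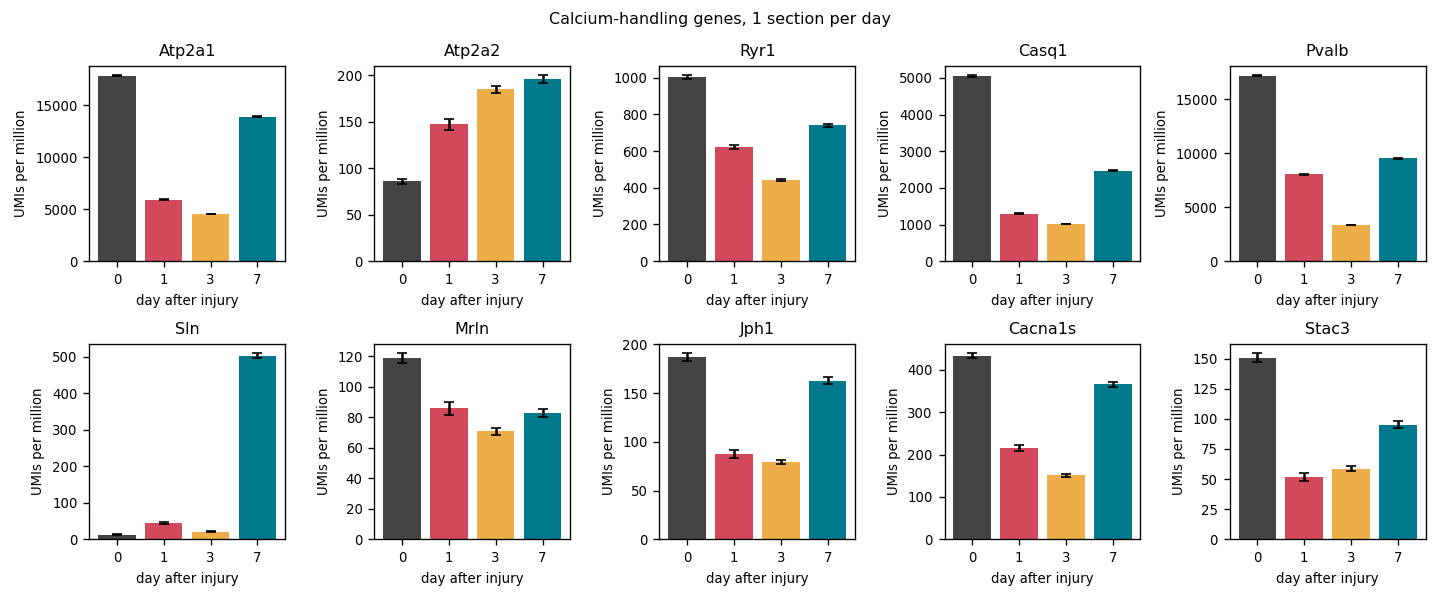
Level of each gene in the 4 sections, in CPM, against the day after injury (bars, with exact Poisson 95% intervals for counting error). Sln stands at 12.2 before injury and 502 at 7 dpi, Atp2a2 is higher in each injured section than at 0 dpi, and the other 8 genes are lower in each.

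The release genes are given first. Cacna1s (ENSMUSG00000026407, chr1:136052806-136119822), the voltage sensor, had 433 CPM at 0 dpi, 215 at 1 dpi, 151 at 3 dpi and 365 at 7 dpi. It was thus lowest at 3 dpi and near the day 0 level at 7 dpi, with log2 ratios of -1.01 (-1.06 to -0.96), -1.52 (-1.56 to -1.48) and -0.25 (-0.28 to -0.21). Per 1000 Acta1 UMIs its level was 7.36, 7.23, 6.79 and 11.6, so it kept pace with Acta1 at 1 dpi (log2 ratio -0.03, -0.08 to 0.02) and exceeded it at 7 dpi (0.66, 0.63 to 0.69).

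Ryr1 (ENSMUSG00000030592, chr7:29003340-29125179), the release channel, had 1005, 622, 442 and 742 CPM before injury and at 1, 3 and 7 dpi. Its log2 ratio to day 0 was -0.69 at 1 dpi, -1.19 at 3 dpi and -0.44 at 7 dpi, a smaller difference at 1 dpi than that of the voltage sensor. Per 1000 Acta1 UMIs it had 17.1, 20.9, 19.9 and 23.6, which was above day 0 in all 3 injured sections.

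Jph1 (ENSMUSG00000042686, chr1:16942104-17097922), which ties the tubule to the store, had 187 CPM at 0 dpi, 87.5 at 1 dpi, 79.2 at 3 dpi and 163 at 7 dpi. Of the 8 genes that were lower in every injured section, it came closest to its day 0 level at 7 dpi, with a log2 ratio of -0.20 (-0.25 to -0.15). Per 1000 Acta1 UMIs it had 3.18, 2.94, 3.57 and 5.18.

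Stac3 (ENSMUSG00000040287, chr10:127501617-127508823), the adaptor needed for coupling, had 151, 51.6, 58.7 and 95.1 CPM. Its lowest level fell at 1 dpi, with a log2 ratio of -1.55 (-1.65 to -1.44) there and -1.36 (-1.42 to -1.30) at 3 dpi. Per Acta1 UMI its log2 ratio was -0.56 (-0.67 to -0.46) at 1 dpi and 0.04 (-0.02 to 0.10) at 3 dpi. The 1 dpi difference thus went beyond that of Acta1, and the 3 dpi value could not be told from day 0. After thinning of each spot to 2000 UMIs, Stac3 was seen in 25.0% of spots at 0 dpi, 9.09% at 1 dpi, 12.5% at 3 dpi and 17.5% at 7 dpi.

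Storage and buffering genes come next. Casq1 (ENSMUSG00000007122, chr1:172209894-172219895), the fast fibre calcium store protein, had 5055 CPM at 0 dpi, 1299 at 1 dpi, 1011 at 3 dpi and 2466 at 7 dpi. Its log2 ratios were -1.96 (-1.98 to -1.94), -2.32 (-2.34 to -2.31) and -1.04 (-1.05 to -1.02), and on the CPM scale it was the 1 gene still past 2-fold lower at 7 dpi. With TMM factors Ryr1 (-1.04), Mrln (-1.13), Stac3 (-1.27) and Pvalb (-1.46) passed that fold at 7 dpi too, and Casq1 was at -1.64. Relative to Acta1 it was also lower at 1 dpi (-0.98) and 3 dpi (-0.92), from 86.0 UMIs per 1000 Acta1 UMIs before injury to 43.7 and 45.5, and was 78.5 at 7 dpi.

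Pvalb (ENSMUSG00000005716, chr15:78191112-78206400), the cytosolic buffer, had 17172 CPM at 0 dpi, 8051 at 1 dpi, 3332 at 3 dpi and 9519 at 7 dpi. Its course over the days differed from that of Casq1. At 1 dpi it was close to Acta1, at 271 against 292 UMIs per 1000 Acta1 UMIs before injury (log2 ratio -0.11). At 3 dpi it was lower, at 150 (-0.96, -0.97 to -0.95). This timing holds for Acta1 as the reference. By 7 dpi it was back at 303.

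**Figure D2:**
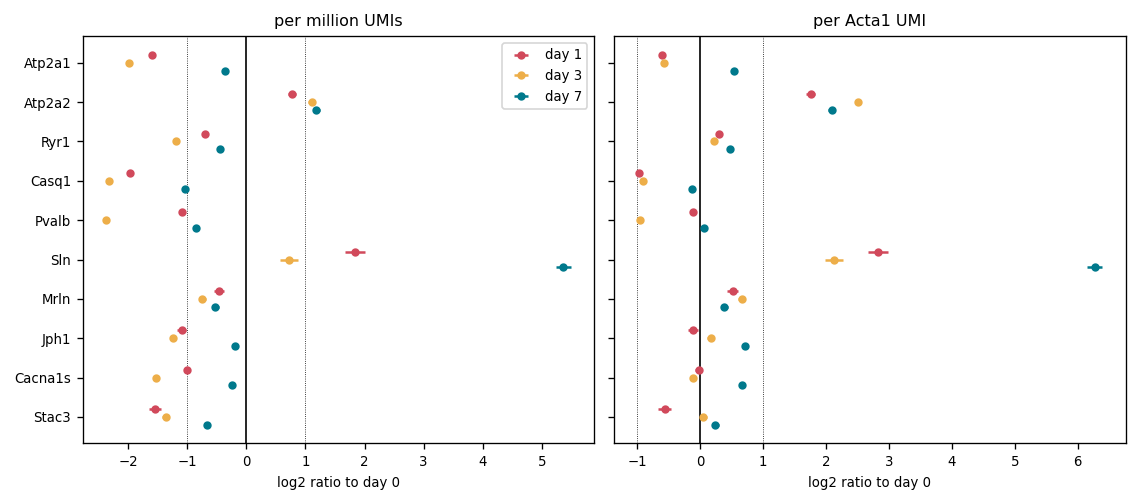
Log2 ratio of each gene to its day 0 level at 1, 3 and 7 dpi, in CPM (left) and per Acta1 UMI (right), with 95% intervals for counting error (exact at left, normal at right) and dotted lines at 2-fold. At right the points of 8 genes lie within 2-fold of day 0, while Atp2a2 and Sln lie beyond it at every day.

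The pumps moved apart. Atp2a1 (ENSMUSG00000030730, chr7:126445858-126463103), the fast fibre SERCA pump, had 17839 CPM at 0 dpi, 5896 at 1 dpi, 4510 at 3 dpi and 13883 at 7 dpi. Relative to Acta1 it was lower at 1 and 3 dpi and higher at 7 dpi, with 303, 198, 203 and 442 UMIs per 1000 Acta1 UMIs. The log2 ratios on that scale were -0.61 (-0.63 to -0.60), -0.58 (-0.59 to -0.57) and 0.54 (0.54 to 0.55).

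Atp2a2 (ENSMUSG00000029467, chr5:122453513-122502225), the slow fibre and general SERCA pump, had 86.0 CPM at 0 dpi, 147 at 1 dpi, 185 at 3 dpi and 196 at 7 dpi. It was higher than before injury in each injured section, with log2 ratios of 0.78 (0.70 to 0.85), 1.10 (1.05 to 1.16) and 1.19 (1.13 to 1.24). With TMM factors, which shift every log2 ratio by -0.21, -0.55 and -0.61 at 1, 3 and 7 dpi, the ratios were 0.57, 0.56 and 0.58 and passed 2-fold at no day. Its share of the UMIs of both pumps was 0.480% (0.465 to 0.495) at 0 dpi, 2.44% (2.34 to 2.53) at 1 dpi, 3.94% (3.86 to 4.01) at 3 dpi and 1.39% (1.36 to 1.42) at 7 dpi.

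At 1, 3 and 7 dpi most Atp2a2 UMIs lay in muscle-poor spots. Day 0 had 14 spots under 10% sarcomere RNA, too few to compare, so no change within such spots is given. In spots with at least 10%, Atp2a2 was above day 0 in CPM at 7 dpi only. Spots with under 10% sarcomere RNA held 44.1%, 76.0% and 37.5% of all UMIs of the section at 1, 3 and 7 dpi, and 77.8% (76.1 to 79.4), 92.5% (91.9 to 93.0) and 60.9% (59.8 to 61.9) of the Atp2a2 UMIs. They held 25.6%, 43.4% and 21.6% of Atp2a1 UMIs. In spots with at least 10% sarcomere RNA, the log2 ratio of Atp2a2 to day 0 in CPM was -0.54 at 1 dpi, -0.55 at 3 dpi and 0.53 at 7 dpi. In these muscle-rich spots, the Atp2a2 share of pump UMIs was 0.472% at 0 dpi, 0.739% at 1 dpi, 0.543% at 3 dpi and 0.699% at 7 dpi. In spots with under 2% sarcomere RNA, of which day 0 had none, Atp2a2 stood at 232 CPM (186 to 286) at 1 dpi, 207 (200 to 214) at 3 dpi and 226 (207 to 247) at 7 dpi, and the leukocyte list, over all spots, had 188 CPM before injury and 1180, 5042 and 1122 at 1, 3 and 7 dpi. The sarcomere list is mostly of fast fibre genes, so spots over slow fibres can count as muscle-poor. The part of leukocytes in the Atp2a2 values was not tested.

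Within each section, Atp2a2 was also higher in spots rich in slow fibre RNA. In the 10% of spots richest in a slow fibre list of 7 genes (Myh7, Myl2, Myl3, Tnnt1, Tnni1, Tnnc1 and Myoz2), a set of spots added after the data were seen, Atp2a2 had 259 CPM against 63.6 in the rest at 0 dpi, and 628 against 73.9 at 1 dpi. This ratio was 4.07 (3.80 to 4.35) at 0 dpi, 8.50 (7.85 to 9.22) at 1 dpi, 3.35 (3.21 to 3.49) at 3 dpi and 3.73 (3.56 to 3.91) at 7 dpi. Atp2a2 was highest at 7 dpi in CPM but at 3 dpi per 1000 Acta1 UMIs, with 1.46, 4.95, 8.32 and 6.24 at 0, 1, 3 and 7 dpi. The slow fibre list had 584 CPM at 0 dpi, 1529 at 1 dpi, 716 at 3 dpi and 859 at 7 dpi. Per 1000 Acta1 UMIs this list had 9.94, 51.4, 32.2 and 27.4, so it was highest at 1 dpi on both scales. Its genes did not move as 1, since 6, 4 and 4 of the 7 were above day 0 at 1, 3 and 7 dpi. Myh7, Myl2 and Myl3 were below day 0 at 3 dpi, and Myl2, Myl3 and Myoz2 at 7 dpi. Without the slow-rich 10% of each section, the log2 ratio of Atp2a2 was 0.22 at 1 dpi, against 0.78 with it, and 1.14 and 1.24 at 3 and 7 dpi, against 1.10 and 1.19 with it. The values without these spots were thus much lower at 1 dpi and close to those of the whole section at 3 and 7 dpi.

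**Figure D3:**
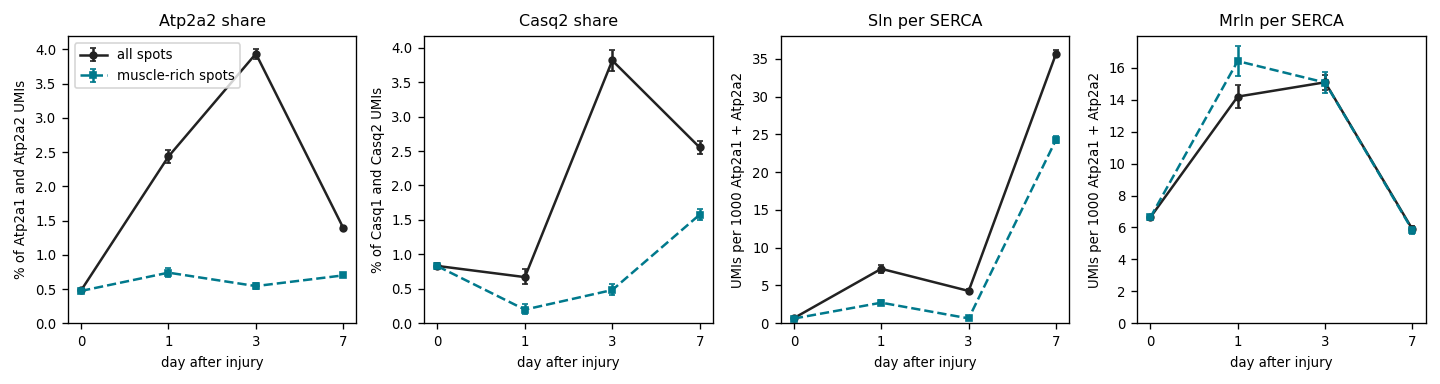
Shares of UMIs by day: Atp2a2 of both SERCA pumps and Casq2 of both calsequestrins (percent), and Sln and Mrln per 1000 SERCA UMIs, in all spots (circles) and in spots with at least 10% of UMIs from sarcomere genes (squares), with exact 95% intervals. In the muscle-rich spots the Atp2a2 share stays between 0.472% and 0.739% at all 4 days, while Sln per SERCA UMI is far higher at 7 dpi in both sets.

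Of the pump inhibitors, Sln (ENSMUSG00000042045, chr9:53850251-53853849) had the widest range. It had 535 UMIs (12.2 CPM) at 0 dpi, 731 (43.6) at 1 dpi, 1127 (20.1) at 3 dpi and 21020 (502) at 7 dpi. The 7 dpi level was 41.2-fold that of day 0, a log2 ratio of 5.36 (5.24 to 5.49), and 77.2-fold per Acta1 UMI. Per 1000 SERCA UMIs Sln went from 0.680 (0.624 to 0.741) before injury to 7.21 (6.69 to 7.75) at 1 dpi, 4.28 (4.03 to 4.54) at 3 dpi and 35.7 (35.2 to 36.2) at 7 dpi.

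The days differed in where Sln lay. At 1 dpi the slow-rich 10% of spots held 83.6% of its UMIs, at 275 CPM against 8.24 in the rest, a ratio of 33.4 (27.4 to 41.0). The same spots held 91.8% of the slow list's own UMIs at that day, by which it was chosen. Without these spots in any section, the 1 dpi log2 ratio of Sln to day 0 was -0.30, against 1.84 with them, and per Acta1 UMI it was 0.74, against 2.82. At 3 dpi the slow-rich 10% held 43.4% of Sln UMIs, and at 7 dpi 19.0%, and the 7 dpi log2 ratio without it was 5.50.

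At 7 dpi Sln was seen in many spots, though most of its UMIs lay in few. The 10% of spots with the most Sln held 70.2% of its UMIs at 7 dpi, where the same measure for Acta1 was 25.7%. At 0, 1 and 3 dpi, with far fewer Sln UMIs, this share was 87.3%, 100% and 79.8%. After thinning to 2000 UMIs, a Sln UMI was seen in 2.12% of spots (1.53 to 2.82) at 0 dpi, 5.04% (4.13 to 6.02) at 1 dpi, 2.68% (2.14 to 3.32) at 3 dpi and 33.5% (31.8 to 35.2) at 7 dpi. In spots with under 2% sarcomere RNA the 7 dpi share was 19.2%, above the 1.35% and 1.13% of such spots at 1 and 3 dpi. Without thinning the shares were 13.2%, 9.60%, 17.5% and 68.2%. Both the thinned and the unthinned share of spots put day 7 far above the rest.

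Mrln (ENSMUSG00000019933, chr10:70204664-70219711), the other pump inhibitor, had 119 CPM at 0 dpi, 85.8 at 1 dpi, 70.8 at 3 dpi and 82.7 at 7 dpi. The differences at 1 and 3 dpi were the smallest among the 8 genes that were lower in every injured section, with log2 ratios of -0.47 (-0.55 to -0.38) and -0.75 (-0.81 to -0.69). Per 1000 Acta1 UMIs Mrln was higher at all 3 injured days, with 2.02 before injury and 2.88, 3.19 and 2.63 after injury. Per 1000 SERCA UMIs it had 6.63 (6.45 to 6.81) at 0 dpi, 14.2 (13.5 to 15.0) at 1 dpi, 15.1 (14.6 to 15.6) at 3 dpi and 5.88 (5.68 to 6.08) at 7 dpi. Muscle-rich spots gave 6.62, 16.4, 15.1 and 5.82. So the ratio of Mrln to the pumps was above day 0 at 1 and 3 dpi and under it at 7 dpi, opposite to the ratio of Sln to the pumps at 7 dpi.

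To narrow the range of muscle content, spots with 10 to 20% sarcomere RNA were set side by side (1292, 1208, 1167 and 2034 spots before injury and at 1, 3 and 7 dpi). The match is partial, since Acta1 in them was at 54766, 35239, 40896 and 38357 CPM, and 38.0% of day 0 spots lay in the class of 20 to 40%, which held at most 1.16% of spots after injury. Per Acta1 UMI, Casq1 was lower there at 1 and 3 dpi, with log2 ratios to day 0 of -0.78 (-0.80 to -0.75) and -0.81 (-0.83 to -0.79). Atp2a1 was lower by less, at -0.49 and -0.26. Mrln was higher, at 0.88 (0.78 to 0.98) and 1.00 (0.92 to 1.08).
Atp2a2 was below day 0 there at 1 dpi (-0.19, -0.33 to -0.06) and 3 dpi (-0.45, -0.56 to -0.33), opposite to the whole sections, and above it at 7 dpi (0.73, 0.66 to 0.81), as in the whole section. Over all spots with at least 10% sarcomere RNA its values per Acta1 UMI were 0.20, -0.02 and 1.14, so the sign at 1 dpi depends on the class of spots. Sln was at 1.56 (1.31 to 1.82) at 1 dpi, could not be told from day 0 at 3 dpi (-0.32, -0.66 to 0.01), and was at 5.74 (5.58 to 5.90) at 7 dpi. At 7 dpi each of the release genes stood above day 0 there per Acta1 UMI, by 0.57 for Cacna1s, 0.41 for Ryr1, 0.71 for Jph1 and 0.17 for Stac3. On that scale Casq1 was the 1 member below it, at -0.13 (-0.15 to -0.12). In CPM, Casq1 (-0.65), Stac3 (-0.35), Pvalb (-0.35), Ryr1 (-0.10) and Mrln (-0.09) were below day 0 in this class at 7 dpi. The other members were above it in CPM, Cacna1s by 0.06 and Jph1 by 0.20.

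**Figure D4:**
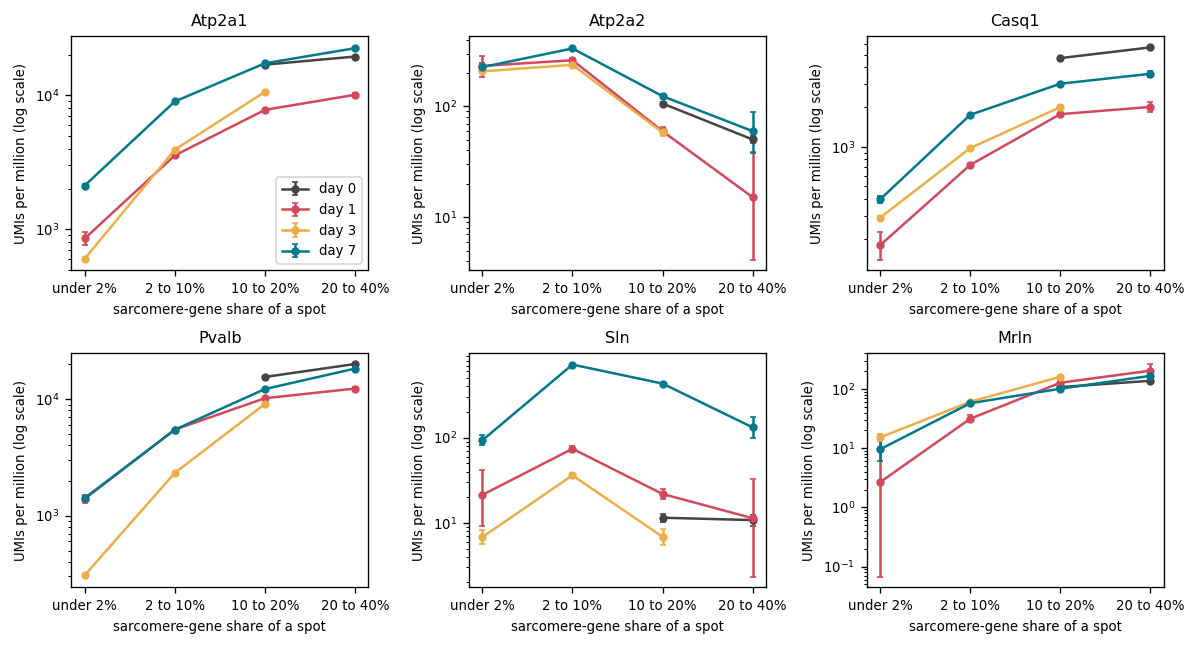
Level of 6 genes in CPM (log axis) in spots grouped by the share of their UMIs from sarcomere genes, by day, with exact Poisson 95% intervals; groups of under 20 spots are left out. Atp2a1, Casq1, Pvalb and Mrln are higher in groups with more muscle RNA, Atp2a2 is lower in groups above 10% than in those under it, and Sln is highest in the 2 to 10% group at 1, 3 and 7 dpi.

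Across spots thinned to 2000 UMIs, the abundant fast fibre genes ran together. The Spearman rank correlation of Atp2a1 and Pvalb was 0.408 at 0 dpi, 0.683 at 1 dpi, 0.885 at 3 dpi and 0.718 at 7 dpi. These are descriptions, since spots of 1 section share a library and all rise and fall with muscle content. Of 1538 genes with at least 50 CPM in every section, the 3 most like Atp2a1 by mean rank correlation over the 4 sections were Ckm (0.699), Myh4 (0.698) and Pvalb (0.673), and Pvalb was most like Myh4 (0.744). Casq1 was likewise most like Myh4 (0.518). The release genes had lower values, with best matches of Myh4 for Ryr1 (0.311), Atp2a1 for Cacna1s (0.199) and Jph1 (0.183), and Acta1 for Stac3 (0.118). The genes most like Atp2a2 were the slow fibre genes Myh7 (0.196), Tnnt1 (0.194) and Tnnc1 (0.191), and those most like Sln were Tnnt1 (0.195), Tnnc1 (0.159) and H19 (0.149). For Sln these means cover sections that differed widely, from 0.053 to 0.405 for Tnnt1, 0.042 to 0.401 for Tnnc1 and 0.004 to 0.374 for H19. Sparse counts hold these correlations down, so no order of the genes is read from them.

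New fibres were examined through 8 genes of regenerating muscle (Myh3, Myh8, Myog, Mymk, Mymx, Myl4, Tnnt2 and Chrng), whose sum was 88.6 CPM at 0 dpi, 54.7 at 1 dpi, 760 at 3 dpi and 808 at 7 dpi. The 20% of spots richest in them was compared with the rest of the same section. At 3 dpi (605 spots), fast fibre genes were low there: Atp2a1 had 1918 CPM against 5639, a ratio of 0.340 (0.336 to 0.344), and Pvalb had 946 against 4371 (0.216, 0.213 to 0.220). Sarcomere genes were low in these spots too, at a median of 2.82% of UMIs against 9.71%. Atp2a2, by contrast, had 297 CPM against 136 (2.18, 2.09 to 2.26) and Sln 35.9 against 13.2 (2.72, 2.41 to 3.06). The slow fibre gene Myh7 was likewise higher in these spots at 3 dpi, at 165 against 45.3 CPM (3.64, 3.43 to 3.87), and its part in the values of Atp2a2 and Sln was not tested.

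By 7 dpi (606 spots) the muscle content of both sets was close, at 11.0% and 12.2% sarcomere RNA. Atp2a1 (ratio 0.881, 0.876 to 0.887) and Pvalb (0.928, 0.921 to 0.934) were now nearly level, and Casq1 was higher in the regenerating spots, at 3065 against 2218 CPM (1.38, 1.36 to 1.40). Sln had 1272 CPM against 184, a ratio of 6.93 (6.72 to 7.15), and 74.1% of its UMIs lay in these spots. Myh7, the only slow list gene compared there, was now lower than in the rest (51.8 against 138 CPM). In the slow-rich spots at 7 dpi, however, Sln had 844 CPM against 459 in the rest (ratio 1.84, 1.78 to 1.90). Across thinned spots at 7 dpi, the rank correlation of Sln was 0.188 with the slow fibre list and 0.364 with the regenerating muscle list. The part of slow fibre RNA in the 7 dpi values of Sln was not tested. Leaving the regenerating spots out of every section was a setting added after the data were seen. The 7 dpi log2 ratio of Sln to day 0 was then still 4.39. Casq2, the cardiac and slow fibre calsequestrin, had a ratio of 4.70 (4.30 to 5.14) at 3 dpi and 6.93 (6.36 to 7.57) at 7 dpi.

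**Figure D5:**
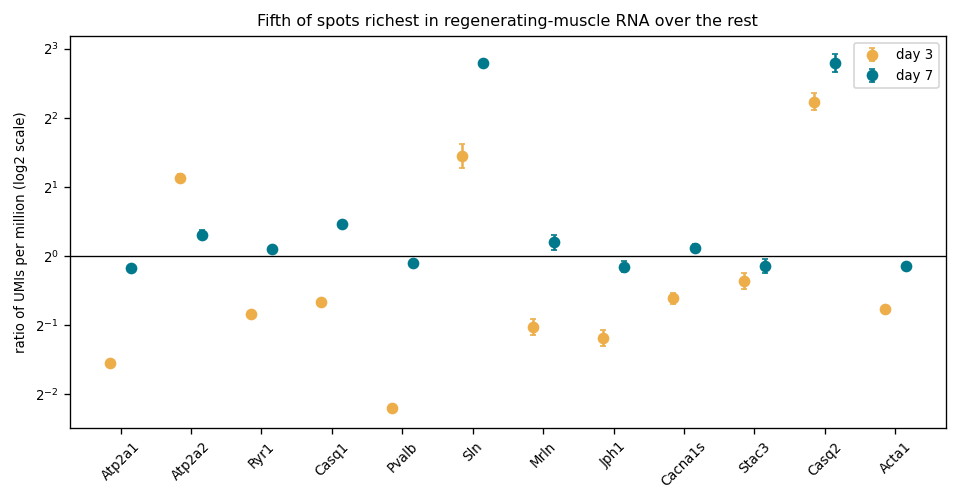
Ratio of CPM (log2 axis) between the 20% of spots richest in regenerating muscle RNA and the rest of the section, at 3 and 7 dpi, with exact 95% intervals. Sln and Casq2 lie well above 1 at both days, and Atp2a1 and Pvalb move from 0.340 and 0.216 at 3 dpi to 0.881 and 0.928 at 7 dpi.

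The balance of the calsequestrins was also followed in whole sections. Casq2 made up 0.832% (0.795 to 0.870) of the UMIs of both at 0 dpi, 0.670% (0.566 to 0.787) at 1 dpi, 3.81% (3.66 to 3.97) at 3 dpi and 2.55% (2.46 to 2.65) at 7 dpi. In muscle-rich spots these were 0.828%, 0.198%, 0.483% and 1.58%, so only the 7 dpi share was above that of day 0 in these spots.

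Of 38 other genes of the pathway, 12 were 2-fold lower at 1 dpi on the CPM scale and 3 higher, 13 lower and 2 higher at 3 dpi, and 1 lower and 4 higher at 7 dpi. Per Acta1 UMI, 2 were lower and 15 higher at 1 dpi, and none was lower and 21 were higher at both 3 and 7 dpi. On both scales the share of the 38 genes that was 2-fold higher was under that of all features at each day (23.7%, 31.9% and 32.0% in CPM and 61.3%, 82.5% and 78.7% per Acta1 UMI). On the lower side, 9.93%, 8.53% and 2.13% of all features passed in CPM and 2.3%, 1.12% and 0.4% per Acta1 UMI. The share of the 38 genes was above these at 1 and 3 dpi in CPM and at 1 dpi per Acta1 UMI. At 7 dpi in CPM it rested on 1 gene. Hrc, a calcium-binding protein of the store, had 868 CPM at 0 dpi, 222 at 1 dpi, 221 at 3 dpi and 848 at 7 dpi, and so was back near its day 0 level where Casq1 was not. Srl, another store protein, had 910, 304, 284 and 469 CPM. Asph, which encodes junctin of the release complex among other products, had 358, 170, 134 and 175 CPM, the 1 gene of the list 2-fold lower at 7 dpi.
Jsrp1, a junctional protein, was 414, 393, 228 and 294 CPM, and Cacna2d1, a subunit of the voltage sensor, 233, 93.2, 67.9 and 194 CPM. The kinase gene Camk2a had 177 CPM before injury and 38.9 at 1 dpi, and Casq2 42.4 and 8.76.
Among pathway genes with at least 10 CPM in a section, several that were high relative to day 0 are known from other cell types as well. Calr, a calcium store protein of most cells, had 222 CPM at 0 dpi, 376 at 1 dpi, 559 at 3 dpi and 408 at 7 dpi. Atp2b1, the plasma membrane calcium pump, had 29.9, 61.0, 59.9 and 47.0 CPM, and Itpr1, the release channel opened by inositol trisphosphate, 10.2, 10.6, 19.4 and 22.8. Tmem38b, a potassium channel of the store, had 46.5 CPM before injury and 86.0 at 1 dpi. Slc8a3, a sodium-calcium exchanger of muscle and brain, was lower at 1 and 3 dpi and higher at 7 dpi, with 14.3, 7.57, 5.35 and 32.7 CPM. Below that level, 3 further genes, named after their values were seen, had ratios as large on few UMIs. Pln (phospholamban, a SERCA inhibitor of slow and cardiac muscle) had 1.46, 3.28, 1.82 and 3.78 CPM, with a log2 ratio of 1.37 (0.94 to 1.81) at 7 dpi. Strit1, which encodes the SERCA activator DWORF, had 1.80 CPM before injury and 4.47 at 1 dpi, a log2 ratio of 1.31 (0.84 to 1.79). Ryr3, another release channel, had 15 UMIs at 0 dpi and 37 at 7 dpi, a log2 ratio of 1.37 (0.47 to 2.34).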

How the data were processed

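Spatial transcriptomes were measured on 4 sections, 1 per group, so no test between groups was possible. Deposited files hold raw counts of UMIs for each gene in each spot, which the authors obtained with Space Ranger (version 1.2.0 in the file headers, Cell Ranger 5.0.0 in the labels, mm10 in the submitters' processing notes). The study's methods name a later Space Ranger version, and which one made the files was not settled. Spots lie over tissue as the authors selected them and cover several cells, and no doublet caller or deconvolution was run. Barcodes mark slide positions, so sections share between 1539 and 2311 of them. No per-sample columns were left aside.

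All 10835 spots were used. Depth per section was 16777832 to 56113066 UMIs, and a gene under 3 UMIs was entered at 3. Intervals (95%) were exact Poisson for CPM, exact conditional binomial for ratios of CPM and Clopper-Pearson for shares, and normal on the log scale for ratios per Acta1 UMI. They cover counting error only. Features with at least 10 UMIs over the 4 sections formed the background, and called means past 2-fold. Spots were grouped by sarcomere share at 2, 10, 20 and 40%, and groups under 20 spots were not compared. For shares of spots and rank correlations, spots were thinned to 2000 UMIs in 20 draws, and 17, 513, 9 and 84 shallower spots before injury and at 1, 3 and 7 dpi were left out.

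The members and lists were chosen with earlier results of these data known. Named genes were the 10 members and Acta1, genes used in ratios or marker lists, for each injured day and scale the 3 highest and 3 lowest of the pathway list with at least 10 CPM, and the 3 genes most like each member. Settings tried were edgeR TMM, size factors from DESeq2, a total that leaves out haemoglobin, mitochondrial and muscle genes, references other than Acta1, spot filters, thinning to 1000 or 4000 UMIs and other cutoffs. The 2 settings that leave out spots were chosen after seeing the data. Calculations were tested on simulated data. Versions used were R 4.3.3 (edgeR 4.0.16, DESeq2 1.42.0) and Python 3.11.15 with pandas 2.3.3, SciPy 1.17.1, NumPy 2.4.6 and matplotlib 3.10.9.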

Additional observations from a re-analysis of the deposited data

How the results depend on the processing

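No paired analysis was possible because each group has 1 section. TMM factors, size factors and the total without mitochondrial, haemoglobin and muscle genes moved all log2 ratios on the CPM scale, by -0.21, -0.19 and -0.21 at 1 dpi, -0.55, -0.56 and -0.45 at 3 dpi, and -0.61, -0.63 and -0.31 at 7 dpi. Under each of the 3, the count of members 2-fold higher was 0 at 3 dpi (1 without them) and 1 at 7 dpi (2 without them). The count 2-fold lower at 7 dpi went from 1 to 5 with TMM or size factors and to 2 with the reduced total. At 3 dpi Mrln, at -0.75 on the CPM scale, was also past 2-fold lower under each of the 3. No share of all features is given for the settings in this section, so the counts have no background beside them.

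In spots with at least 10% sarcomere RNA, the count 2-fold higher was 0, 0 and 1 on the CPM scale at 1, 3 and 7 dpi, and 1 and 0 per Acta1 UMI at 1 and 3 dpi. The count 2-fold lower on the CPM scale was 3, 1 and 0 at 1, 3 and 7 dpi. There the 3 dpi log2 ratio of Atp2a2 turned to -0.55 on the CPM scale and -0.0225 per Acta1 UMI, and that of Sln to -0.17 per Acta1 UMI. With the summed sarcomere list as the reference in place of Acta1, 1 member was 2-fold lower at 1 dpi.

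The settings chosen after seeing the data gave these changes. Without the slow-rich 10% of spots, the count 2-fold higher at 1 dpi was 0 on the CPM scale and 1 per Acta1 UMI, and the 1 dpi log2 ratio of Sln turned to -0.30. Without the 20% of spots richest in regenerating muscle RNA, the count 2-fold higher on the CPM scale at 3 dpi was 0. For these changes the spots left out are the cause by construction, and why the spots differ was not tested. With 1 section per day, depth limits counting error only, and the spread between animals is unknown.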
